A study of Mus musculus with 12 samples.

Results

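The cytochrome P450 genes of the mouse kidney were followed over 12 whole-transcript arrays. Members were all genes whose symbol begins with Cyp and a digit, leaving out Cyp27b1, Cyp2r1 and Cyp51, and a gene was represented by its probe set of highest mean among those naming 1 gene. This gave 84 of the 19938 genes measured, spread over 34 subfamilies, each with 1 probe set. Total kidney RNA of female mice was hybridised in 3 groups of 4 arrays. The wild-type (WT) groups carried the strain label C57BL/6 and received 1 intraperitoneal injection of either recombinant FGF23 at 500 ng per g body weight or 100 µl saline vehicle. The KL null group, labelled as null for the klotho gene Kl, carried the strain label 129/SvEv/C57BL/6 and received vehicle. All mice had been on standard diet for 5 to 8 weeks, and kidneys were taken 1 hour after the injection. WT mice were littermates of KL null mice according to the treatment protocol, whereas the strain labels differ. Genotype and strain label go together, so an effect of one cannot be told apart from an effect of the other. The labels do not say that replicates were separate mice, so a p-value here speaks only of the spread from sample to sample, which may be technical. The protocol also names an HBEGF arm, which was not analysed here.

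Cytochrome P450 enzymes are heme proteins that insert oxygen into fats, steroids, bile acid precursors, retinoids, drugs and pollutants. In the kidney the CYP4A, CYP2C and CYP2J enzymes turn arachidonic acid into hydroxylated and epoxide products that act on vessel tone and salt transport, and many P450 genes of the mouse kidney and liver differ between males and females. Klotho is the co-receptor that FGF23 needs to signal in the kidney, and FGF23 lowers phosphate reabsorption and the synthesis of active vitamin D.

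Kl itself measured 9.66 to 9.80 in the KL null arrays on the log2 scale of the signals, against 10.45 to 10.74 with WT vehicle and 10.44 to 10.61 with FGF23. Which part of Kl its probe set reads was not given in the sources used here, so the remaining signal was not interpreted. The X-linked Xist lay between 11.06 and 11.41 in all 12 arrays and the Y-linked Eif2s3y between 2.70 and 2.99, and none of the 4 sex-linked genes measured passed the test between groups. Proximal tubule markers were lower in KL null kidneys: 13 of 23 passed the test in that direction and 0 rose, with the mean of the list between 11.44 and 11.56 per array against 11.76 to 11.93 with vehicle. Immune cell markers were higher, 9 of 24 against 1 lower, with array means of 6.2 to 6.56 against 5.81 to 6.16. By comparison, 4.44% of all genes passed downwards and 3.58% upwards. The shifts of both marker lists lie beside every P450 result in KL null kidneys below, and their part in those results was not tested. In RNA of whole kidney, fewer cells of a type and less RNA per cell cannot be told apart. The spread of log2 signals on an array, its SD over genes, ran from 2.17 to 2.28 and was lowest in WT FGF23 replicates 1 and 2 and KL null replicates 1 and 2.

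KL null kidneys had higher signal for 16 P450 genes and lower signal for 3 than WT vehicle kidneys. Calls rest on limma p-values adjusted by Benjamini and Hochberg's method over all 19938 genes, with a threshold of 0.05. These are 22.6% of the members, where 8.01% of all genes passed, 3.58% upwards and 4.44% downwards. Changes of at least 1.5-fold made up 8 of the increases and all 3 decreases, where 1.12% and 1.34% of all genes passed with that size. At an unadjusted p below 0.05 stood 28 members, 21 higher and 7 lower, and 21.3% of all genes. After centring the arrays on their medians the members gave 14 higher and 4 lower, and all genes 2.27% higher and 6.87% lower. The median log2 difference of the 84 members was 0.08, against 0.025 for all genes, with 61 members above 0 and 22 below, where 56.2% of all genes were above 0. Most P450 members were dim: 47 of 84 lay in the lowest 30% of all genes by mean signal. Of those, 3 were called (Cyp17a1, Cyp2d13 and Cyp3a13), or 6.38%, where 1.79% of all genes in that range were. Among the 37 brighter members 13 were higher and 3 lower, or 43.2%, where 10.7% of all brighter genes were called.

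In 15 members every KL null array lay above every vehicle array, and in 2 every KL null array lay below (6.35% and 7.44% of all genes). Against all 8 WT arrays, FGF23 included, 12 members stood wholly above and 1, Cyp2d12, wholly below (3.78% and 4.35% of all genes). The 12 were all among the called members. The Cyp4a, Cyp2d and Cyp2j subfamilies, with 5, 10 and 6 members, held 10 of the 16 increases. The Cyp1 family, Cyp2b, Cyp2c and Cyp26 held 0 calls, and differences between families were not tested. Apart from Cyp2c23, vehicle means in Cyp2b and Cyp2c ran only from 2.70 (Cyp2c68) to 5.34 (Cyp2b23). Dim members were called less often than brighter ones, at 6.38% against 43.2%. The part of low signal in the 0 calls was not tested. The plot of differences by subfamily shows each member once.

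**Figure D1:**
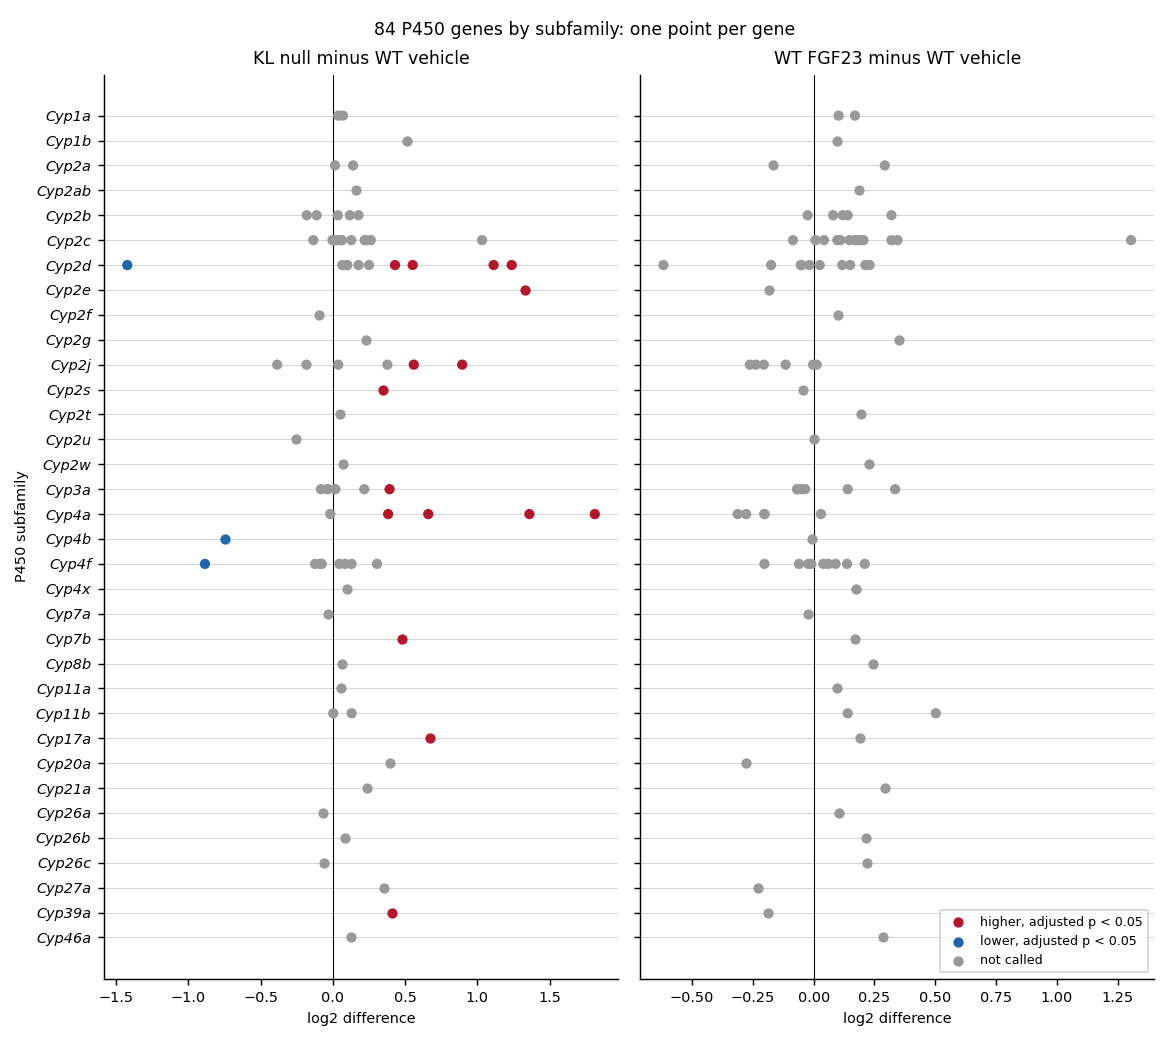
Log2 difference of each of the 84 P450 genes (x axis, 1 point per gene) by subfamily (y axis), for KL null minus WT vehicle on the left and WT FGF23 minus WT vehicle on the right. Red and blue points passed the limma test at an adjusted p below 0.05 (16 higher and 3 lower on the left, 0 on the right), and grey points did not. The grey Cyp2c point far to the right in both panels is Cyp2c23, whose vehicle arrays disagree with each other.

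**Figure D2:**
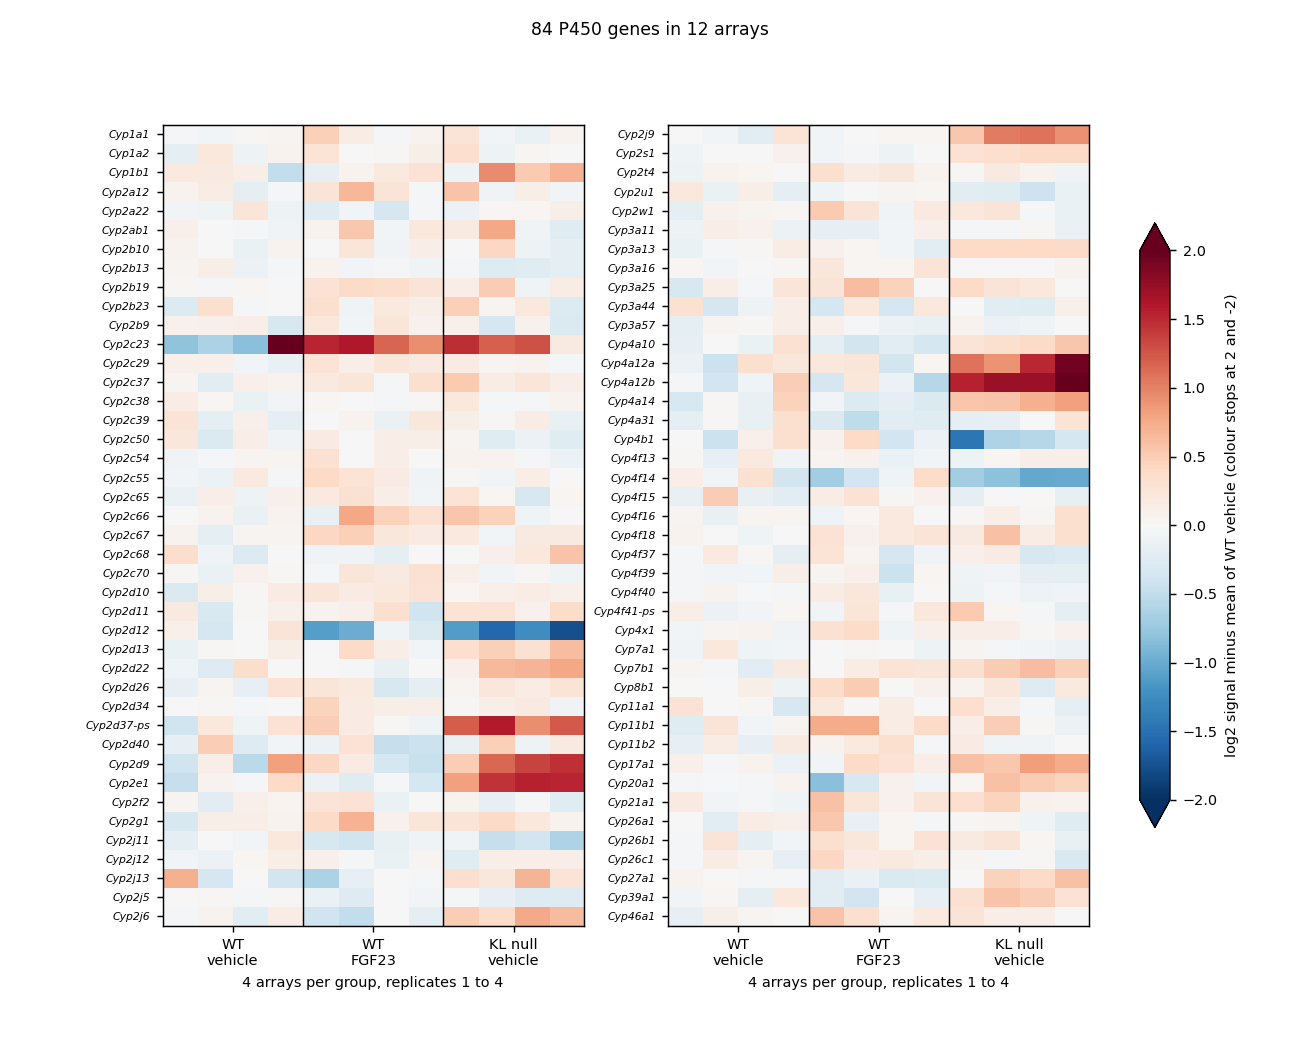
Log2 signal of each P450 gene (rows) in each of 12 arrays (columns, grouped and in replicate order) minus the mean of the 4 WT vehicle arrays, with the colour stopping at 2 and -2. Cyp4a12b, Cyp4a12a, Cyp2e1, Cyp2d37-ps and Cyp2d9 are red across the KL null columns, Cyp2d12 and Cyp4f14 blue, and most rows are pale.

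The bases upstream of the gene start were read from the RefSeq promoter table of GRCm38.p6, which held 61 of the 84 members and 8 of the 19 called ones. The 250 bases before the start are shown for the called members of at least 1.5-fold that had an entry (Cyp2e1, Cyp2d9, Cyp2j9 and Cyp4b1) and for Cyp2j6, the neighbour of Cyp2j9 that rose with it. They run 5′ to 3′ on the gene's strand, and capitals mark matches, on either strand, to the motifs TATAA (TATA box core), AGGTCA (nuclear receptor half-site), AGAACA (steroid receptor half-site) and TTCNNNGAA (STAT core). Overlapping matches of TATAA on both strands appear as 1 run of capitals.
Cyp2e1, chr7:140763569-140763818, plus strand: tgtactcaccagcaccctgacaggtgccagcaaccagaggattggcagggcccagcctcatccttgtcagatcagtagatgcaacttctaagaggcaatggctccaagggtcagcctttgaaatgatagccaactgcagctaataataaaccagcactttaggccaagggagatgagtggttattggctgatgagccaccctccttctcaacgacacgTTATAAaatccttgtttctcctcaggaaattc
Cyp2d9, chr15:82452127-82452376, plus strand: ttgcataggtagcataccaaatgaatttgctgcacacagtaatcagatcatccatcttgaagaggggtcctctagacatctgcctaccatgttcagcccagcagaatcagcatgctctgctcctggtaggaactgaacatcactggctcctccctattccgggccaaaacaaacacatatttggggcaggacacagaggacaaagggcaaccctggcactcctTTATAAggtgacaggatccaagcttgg
Cyp2j9, chr4:96591486-96591735, minus strand: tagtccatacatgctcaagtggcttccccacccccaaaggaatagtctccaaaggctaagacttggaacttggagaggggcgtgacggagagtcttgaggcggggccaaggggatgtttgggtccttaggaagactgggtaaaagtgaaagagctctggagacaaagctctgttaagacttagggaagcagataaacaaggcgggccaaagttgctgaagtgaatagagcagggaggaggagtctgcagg
Cyp2j6, chr4:96553652-96553901, minus strand: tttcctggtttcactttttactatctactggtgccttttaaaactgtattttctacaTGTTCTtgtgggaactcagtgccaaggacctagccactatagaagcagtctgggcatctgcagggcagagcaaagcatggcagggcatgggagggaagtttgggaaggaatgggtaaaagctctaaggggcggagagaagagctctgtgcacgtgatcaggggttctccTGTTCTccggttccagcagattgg
Cyp4b1, chr4:115647722-115647971, minus strand: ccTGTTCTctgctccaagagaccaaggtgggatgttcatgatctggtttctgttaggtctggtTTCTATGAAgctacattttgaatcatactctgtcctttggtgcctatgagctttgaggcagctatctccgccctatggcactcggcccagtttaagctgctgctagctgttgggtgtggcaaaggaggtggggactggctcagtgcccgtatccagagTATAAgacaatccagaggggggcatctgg
TATAA stood 31 bases before the start in Cyp2e1, 26 in Cyp2d9 and 29 in Cyp4b1. It was present in 31 of the 61 members with an entry (50.8%) and in 22.8% of all 32841 windows. For each motif a member counted if any of its windows matched, while all windows were counted singly. The shares are thus in unlike units. AGAACA matched on the minus strand at 193 and 24 bases before the start of Cyp2j6 and at 248 in Cyp4b1. It was present in 12 members (19.7%) and 16.1% of all windows. TTCNNNGAA was present once in the windows shown, at 187 bases in Cyp4b1, and in 4 members (6.56%) and 7.02% of all windows. AGGTCA matched none of the 5 windows shown, and was present in 15 members (24.6%) and 14.0% of all windows. The window of Cyp2j9 held none of the 4 motifs. These matches describe letters and are not binding sites.

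The fatty acid hydroxylases of family CYP4 held the P450 gene of largest increase, with 4 of 16 members higher and 2 lower. Cyp4a12b and Cyp4a12a, hydroxylases that make 20-HETE from arachidonic acid and are known as male-biased genes, were the leading pair. Cyp4a12b measured 5.74, 5.37, 5.67 and 6.25 in WT vehicle replicates 1 to 4, 5.42, 5.98, 5.64 and 5.18 with FGF23, and 7.29, 7.49, 7.48 and 8.02 in KL null. All 4 KL null arrays stood above all 8 WT arrays, and the WT groups overlapped. The log2 difference from vehicle was 1.81 (SE 0.197), a 3.51-fold increase with limma's adjusted p = 6.9e-05. Cyp4a12a measured 5.12, 4.81, 5.55 and 5.46 with vehicle, 5.44, 5.48, 4.86 and 5.28 with FGF23, and 6.32, 6.14, 6.75 and 7.17 in KL null. It too was higher in every KL null array than in any WT array, and its increase was 2.57-fold (log2 difference 1.36, SE 0.212, limma adjusted p = 0.00126). These genes are near-identical copies, so how far their probe sets read each other's transcripts is uncertain.

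Cyp4a14 and Cyp4a10, fatty acid hydroxylases known as targets of the lipid sensor PPAR-alpha, rose less. Cyp4a14 measured 10.67, 11.01, 10.84 and 11.45 with vehicle, 10.94, 10.72, 10.79 and 10.71 with FGF23, and 11.54, 11.56, 11.70 and 11.81 in KL null. The highest vehicle array, replicate 4, came close to the lowest KL null array, and the groups did not overlap. The increase was 1.58-fold (log2 difference 0.66, SE 0.135, limma adjusted p = 0.00772). Cyp4a10 rose by 0.38 on the log2 scale (limma adjusted p = 0.0385), its range of 10.91 to 11.20 in KL null overlapping that of 10.48 to 10.95 with vehicle. The Cyp4a10 call was lost, with an adjusted p of 0.0674 to 0.129, when any 1 of WT vehicle replicates 1, 2 and 3 or KL null replicates 2, 3 and 4 was left out, and at 0.0931 with array medians centred. It was also lost with only the 2 groups fitted (0.0633), the unmoderated model (0.0744) and without the 4 arrays of lowest spread (0.0562). The fifth member, Cyp4a31, had a log2 difference of -0.02 (limma adjusted p = 0.963).

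Cyp4f14, a hydroxylase of leukotrienes, and Cyp4b1, which hydroxylates shorter fatty acids, were lower. Cyp4f14 measured 6.46, 6.26, 6.62 and 5.95 with vehicle, 5.62, 5.94, 6.23 and 6.69 with FGF23, and 5.63, 5.50, 5.30 and 5.32 in KL null. Every KL null array was below every vehicle array, while WT FGF23 replicate 1 reached down into the KL null range. The signal was 1.85-fold lower than with vehicle (log2 difference -0.88, SE 0.189, limma adjusted p = 0.00977), a call lost in 1 of 24 alternatives, the unmoderated model (0.0551). Cyp4b1 measured 9.18, 8.75, 9.27 and 9.50 with vehicle, 9.26, 9.57, 8.79 and 9.05 with FGF23, and 7.73, 8.55, 8.61 and 8.82 in KL null. KL null replicate 1 was far below the others, and replicate 4 lay above the lowest vehicle array. The difference was -0.75 (SE 0.219), 1.68-fold lower, and close to the threshold with a limma adjusted p of 0.049. It passed no longer, at 0.0573 to 0.127, without any 1 of 8 arrays: WT FGF23 replicate 1 or 4, WT vehicle replicate 1, 3 or 4, or KL null replicate 1, 2 or 3. With the replicate number as a block its adjusted p was 0.0527. In all, 15 of 24 alternatives lost the call, with an adjusted p of up to 0.148 (the unmoderated model), and the difference was smallest, -0.46, without the 4 arrays of lowest spread. The other 8 members of Cyp4f had log2 differences of -0.12 to 0.30 and Cyp4x1 of 0.10, none of them called. Of these, Cyp4f18 was higher in every KL null array than in any vehicle array without passing the test (log2 difference 0.30, limma adjusted p = 0.0684).

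**Figure D3:**
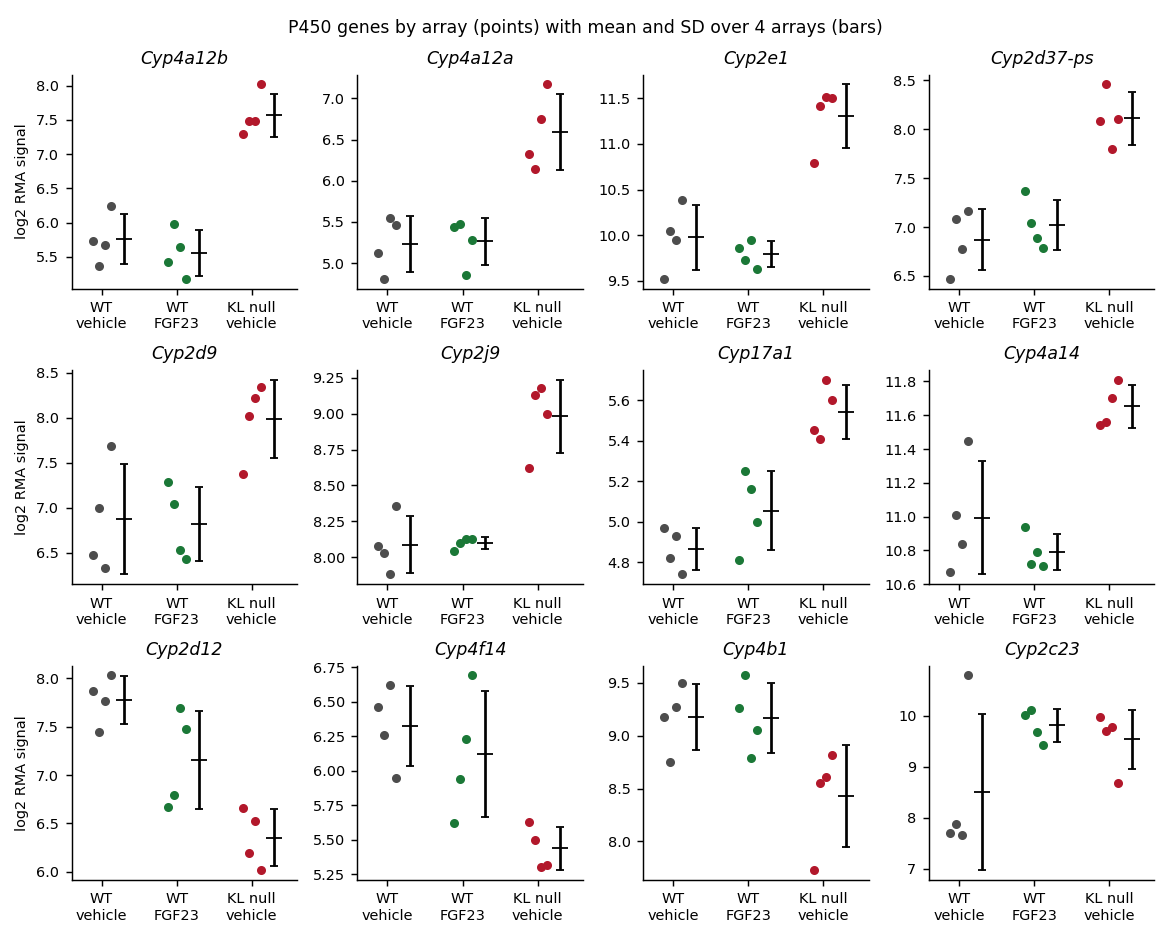
Log2 RMA signal (y axis) in each array (points) of the 11 P450 genes called with at least 1.5-fold in KL null and of Cyp2c23, by group (x axis), with mean and SD over 4 arrays as bars; each panel has its own scale, which does not start at 0. KL null points stand above both WT groups in Cyp4a12b, Cyp4a12a, Cyp2e1, Cyp2d37-ps, Cyp2j9, Cyp17a1 and Cyp4a14 and below them in Cyp2d12, and 1 vehicle array of Cyp2c23 stands apart from the other 3.

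Families CYP1 to CYP3, which oxidise drugs and other foreign compounds as well as fatty acids and steroids, held 53 members, of which 9 rose and 1 fell. Cyp2e1, which oxidises ethanol, acetone and small solvents, rose 2.52-fold. Its vehicle arrays measured 9.52, 10.05, 9.95 and 10.38, its FGF23 arrays 9.86, 9.73, 9.95 and 9.63, and its KL null arrays 10.79, 11.42, 11.52 and 11.50. The KL null arrays were all above the WT arrays, with replicate 1 below the other 3. The log2 difference was 1.33 (SE 0.176, limma adjusted p = 0.000388).

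The Cyp2d subfamily, the mouse relatives of the human drug-metabolising CYP2D gene, moved in both directions, with 4 of 10 higher and 1 lower. Cyp2d37-ps, listed by RefSeq as a transcribed pseudogene, measured 6.47, 7.08, 6.78 and 7.16 with vehicle, 7.37, 7.04, 6.89 and 6.79 with FGF23, and 8.08, 8.46, 7.80 and 8.10 in KL null. The KL null arrays stood wholly above, at 2.36-fold (log2 difference 1.24, SE 0.167, limma adjusted p = 0.000467). Cyp2d9, known as a male-biased steroid hydroxylase of mouse liver, measured 6.48, 7.0, 6.33 and 7.69 with vehicle, 7.29, 7.04, 6.53 and 6.43 with FGF23, and 7.37, 8.02, 8.22 and 8.34 in KL null. WT vehicle replicate 4 lay above KL null replicate 1, so the groups overlapped. The increase was 2.16-fold (log2 difference 1.11, SE 0.278, limma adjusted p = 0.0232), and it missed the threshold, at 0.0583 to 0.0876, without WT vehicle replicate 1 or 3 or KL null replicate 2, 3 or 4. The trended and robust fit (0.0671) and the unmoderated model (0.101) also lost that call.

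Cyp2d12, whose gene follows that of Cyp2d9 on chromosome 15, went the other way. It measured 7.87, 7.44, 7.76 and 8.03 with vehicle, 6.67, 6.79, 7.69 and 7.48 with FGF23, and 6.66, 6.2, 6.53 and 6.02 in KL null. All KL null arrays were below all WT arrays, although WT FGF23 replicate 1 lay only just above the highest of them. The signal was 2.68-fold lower than with vehicle (log2 difference -1.42, SE 0.211, limma adjusted p = 0.000845). Cyp2d22 rose by 0.55 and the transcribed pseudogene Cyp2d13 by 0.43 on the log2 scale (limma adjusted p = 0.0272 and 0.0216). Cyp2d22 passed no longer, at 0.0502 to 0.0872, without WT vehicle replicate 1, 2 or 4 or KL null replicate 2, 3 or 4, and Cyp2d13, at 0.0586 to 0.0779, without WT vehicle replicate 1 or 3 or KL null replicate 2 or 4. The unmoderated model lost both (0.0855 and 0.051), and fitting only the 2 groups lost Cyp2d22 (0.0557). The other 5 members, Cyp2d10, Cyp2d11, Cyp2d26, Cyp2d34 and Cyp2d40, had differences of 0.07 to 0.25 and no call. Cyp2d genes are close copies of each other, and reading of more than 1 of them by a probe set was not tested.

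The Cyp2j subfamily makes epoxides of arachidonic acid, and 2 of its 6 members rose. Cyp2j9 measured 8.08, 8.03, 7.88 and 8.36 with vehicle, 8.04, 8.10, 8.13 and 8.13 with FGF23, and 8.62, 9.13, 9.18 and 9.0 in KL null. The KL null arrays were all higher than the WT arrays, by 1.86-fold against vehicle (log2 difference 0.90, SE 0.122, limma adjusted p = 0.000479). Cyp2j6 rose by 0.56 (limma adjusted p = 0.0104), with 8.99 to 9.38 in KL null against 8.42 to 8.78 with vehicle. Cyp2j5, the epoxygenase known from kidney, had a log2 difference of -0.18 that did not pass (12.55 ± 0.03 with vehicle, 12.37 ± 0.10 in KL null, SD, n = 4, limma adjusted p = 0.206). Cyp2j11 had a log2 difference of -0.38 (limma adjusted p = 0.0617), and Cyp2j12 and Cyp2j13 differences of 0.04 and 0.38, neither called.

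Cyp2s1, known from epithelia outside the liver, rose by 0.34 (limma adjusted p = 0.0085) and Cyp3a13, a drug-oxidising enzyme, by 0.39 (limma adjusted p = 0.0119). Cyp3a13 measured 5.07 to 5.09 in KL null against 4.55 to 4.83 with vehicle, and passed no longer without WT vehicle replicate 1 (adjusted p = 0.0512). The other 5 members of Cyp3a lay between -0.08 and 0.22. None of the 3 members of family Cyp1, which answer to the aryl hydrocarbon receptor, passed, the nearest being Cyp1b1 (log2 difference 0.52, limma adjusted p = 0.131). None of the 5 members of Cyp2b and none of the 13 of Cyp2c passed either, at -0.18 to 0.18 in Cyp2b and -0.14 to 1.03 in Cyp2c. The 8 remaining members, Cyp2a12, Cyp2a22, Cyp2ab1, Cyp2f2, Cyp2g1, Cyp2t4, Cyp2u1 and Cyp2w1, had differences of -0.25 (Cyp2u1) to 0.23 (Cyp2g1) and no call.

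Cyp2c23, an arachidonic acid epoxygenase of the kidney, was looked at after its values were seen, because its vehicle arrays split. They measured 7.69, 7.87, 7.66 and 10.79, against 10.02, 10.11, 9.67 and 9.43 with FGF23 and 9.98, 9.70, 9.78 and 8.68 in KL null. WT vehicle replicate 4 was higher than all the other 11 arrays, and the other 3 vehicle arrays were lower than all 8 arrays of the other groups. With the 4 vehicle arrays the log2 difference was 1.03 in KL null (SE 0.531) and 1.30 with FGF23, both with a limma adjusted p of 0.286. Without WT vehicle replicate 4 it was 1.79 in KL null (adjusted p = 0.000775) and 2.07 with FGF23 (adjusted p = 0.00532). Whether a change is called thus rests on that 1 array, and why the vehicle arrays split was not tested.

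The neighbouring genes of these subfamilies differed among themselves. In RefSeq order on chromosome 4, Cyp4x1 was not called, Cyp4a12a, Cyp4a12b, Cyp4a14 and Cyp4a10 rose, Cyp4a31 was not called and Cyp4b1 fell. The Cyp2j genes, also on chromosome 4, run Cyp2j13, Cyp2j12, Cyp2j11, Cyp2j6, Cyp2j9 and Cyp2j5, and the pair that rose were next to each other. On chromosome 15 the Cyp2d genes that rose, Cyp2d22, Cyp2d9, Cyp2d13 and Cyp2d37-ps, stood among members not called, with Cyp2d12, which fell, directly after Cyp2d9. By chromosome, 6 of 14 members on chromosome 4 rose and 1 fell, and 4 of 12 on chromosome 15 rose and 1 fell. On chromosome 19, the site of Cyp2c, 1 of 16 rose, and the Cyp2c genes other than Cyp2c23 had low signal. Of all genes 3.58% were called higher and 4.44% lower, a share not split by chromosome. Differences between chromosomes were not tested.

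**Figure D4:**
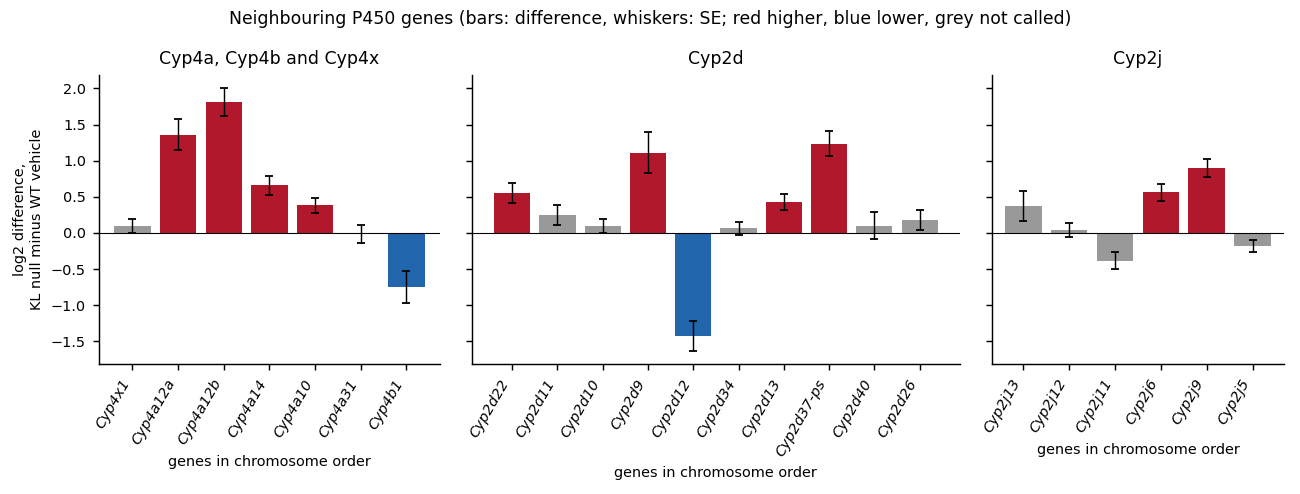
Log2 difference of KL null from WT vehicle (y axis, bars from 0, whiskers ± SE of the fit) for P450 genes in their order along the chromosome (x axis, without distances), with red for called higher, blue for called lower and grey for not called. Cyp2d9 at 1.11 and Cyp2d12 at -1.42 stand side by side, and Cyp2j6 and Cyp2j9 are the red pair of the Cyp2j genes.

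Of the 6 sterol and bile acid enzymes, 2 rose. Cyp7b1 and Cyp39a1, which hydroxylate oxysterols, rose by 0.48 and 0.41 on the log2 scale (limma adjusted p = 0.00855 and 0.0284). Both were higher in all KL null arrays than in all WT arrays: Cyp7b1 measured 6.53 to 6.83 in KL null and 6.00 to 6.39 with vehicle, Cyp39a1 8.02 to 8.30 and 7.54 to 7.94. Cyp39a1 missed the threshold, at 0.0836 to 0.101, without WT vehicle replicate 1 or 3 or KL null replicate 2 or 3, at 0.0694 with array medians centred, at 0.0617 with the unmoderated model and at 0.078 without the 4 arrays of lowest spread. Cyp27a1, the mitochondrial sterol hydroxylase of bile acid synthesis, had a difference of 0.35 that did not pass (limma adjusted p = 0.0591). Cyp46a1, the cholesterol hydroxylase known from brain, had 0.13. Cyp7a1 and Cyp8b1, the liver enzymes of bile acid synthesis, had differences of -0.04 and 0.06.

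Of the 5 genes of steroid hormone synthesis, Cyp17a1, which makes androgen precursors and glucocorticoid intermediates, rose. It measured 4.97, 4.82, 4.93 and 4.74 with vehicle, 4.81, 5.25, 5.16 and 5.00 with FGF23, and 5.45, 5.41, 5.70 and 5.60 in KL null. The KL null arrays were above all WT arrays at 1.60-fold (log2 difference 0.68, SE 0.104, limma adjusted p = 0.00118). Cyp17a1 was dim, 1 of the 3 called members in the lowest 30% of all genes by mean signal. Cyp11a1, Cyp11b1, Cyp11b2 and Cyp21a1, the other steps of the adrenal pathway, had differences of 0.00 to 0.24 and no call. Of 17 adrenal gland markers measured, 4 of them these P450 genes, 1 rose, Hsd3b1, at 1.52-fold, and 0 fell. The mean of the adrenal list was 4.70 to 4.99 per array in KL null and 4.68 to 4.86 with vehicle, and its part in the Cyp17a1 value was not tested. Of 12 liver markers measured, Trf, Fga and Hp rose, and Alb (2.32-fold) and Ttr (1.78-fold) fell. Among all genes 3.58% were called higher and 4.44% lower.

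None of the 3 retinoic acid hydroxylases passed. Cyp26b1 had the smallest p of them (log2 difference 0.08, limma adjusted p = 0.751), and Cyp26a1 and Cyp26c1 had differences of -0.07 and -0.06. Cyp20a1, whose substrate is not known, had 0.40 (limma adjusted p = 0.171), and it passed with array quality weights (0.027), with the spread of each array as a covariate (0.0259) and without the 4 arrays of lowest spread (0.00754).

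P450 enzymes take electrons from a reductase or ferredoxin and need heme. The electron and heme list and the epoxide and eicosanoid list are called partner lists here. They stand beside 3.58% of all genes called higher and 4.44% lower. Of 18 genes measured of the electron transfer and heme list, Blvrb, a biliverdin reductase, rose by 0.37, and Uros and Cpox, enzymes of heme synthesis, fell by 0.56 and 0.48 on the log2 scale (limma adjusted p = 0.0166, 0.00142 and 0.00906). Heme synthase Fech (log2 difference -0.24), Alas1 (-0.17), and the electron carriers Cyb5a (-0.08) and Fdx1 (0.02) did not pass. Of 18 epoxide and eicosanoid genes, Ephx1, microsomal epoxide hydrolase, rose 1.75-fold (limma adjusted p = 0.00047). Hpgd, which inactivates prostaglandins, fell by 0.73 and Tbxas1, thromboxane synthase, by 0.48 (limma adjusted p = 0.0263 and 0.00924). Membership went by symbol alone, so Tbxas1 was counted on this list and not among the P450 members. Ephx2, the soluble hydrolase that opens CYP2C and CYP2J epoxides, had a difference of 0.22 (limma adjusted p = 0.0992).

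Of 30 receptors and regulators of P450 genes, 2 rose and 5 fell, where 3.58% of all genes were called higher and 4.44% lower. Nr1i3, the xenobiotic receptor CAR, rose by 0.52 and Nr1h4, the bile acid receptor FXR, by 0.41 (limma adjusted p = 0.01 and 0.0156). The growth hormone receptor Ghr fell by 0.73, the oxysterol receptor Nr1h3 by 0.60, the repressor Bcl6 by 0.60 and the fatty acid sensor Ppard by 0.55, with limma adjusted p-values of 0.000506, 0.00401, 0.0247 and 0.00186. Hnf4a, a factor of liver and proximal tubule, fell by 0.35 and is also in the proximal tubule list. Ppara, the receptor behind Cyp4a10 and Cyp4a14 in textbooks, had a difference of 0.18 (limma adjusted p = 0.584), and the aryl hydrocarbon receptor Ahr 0.07.

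Lists of genes known to differ between male and female mouse kidney, drawn up with earlier results of these data known, were set beside the P450 members. Of the 6 P450 genes on the male-biased list, Cyp4a12a, Cyp4a12b, Cyp2d9, Cyp2e1 and Cyp7b1 rose, and Cyp2j13 had a difference of 0.38 that did not pass. Whether these 6 stand for male-biased P450 genes in general was not tested. The 13 other male-biased genes divided: Slc7a13 (11.5-fold) and Timd2 (2.07-fold) rose, while Kap (2.82-fold), Acy3 (2.75-fold), Odc1 (2.20-fold) and Slc22a12 (1.44-fold) fell. The 1 P450 gene on the female-biased list, Cyp4a14, rose, whereas 9 of the 14 others fell and Slco4c1 rose. Beside the counts of both lists, 3.58% of all genes were called higher and 4.44% lower. The largest falls on the female-biased list were Akr1c18 (25.8-fold), Slc22a7 (24.3-fold), Slc22a19 (10.3-fold) and Akr1c14 (8.10-fold). The plot of gene lists sets the P450 members apart as diamonds.

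**Figure D5:**
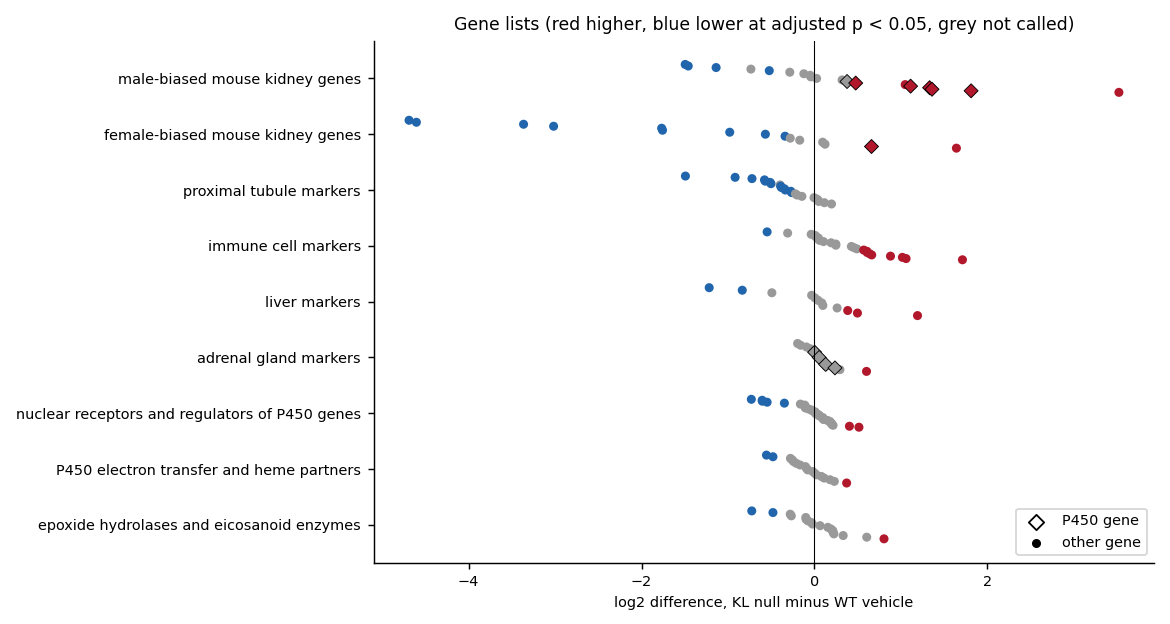
Log2 difference of KL null from WT vehicle (x axis) for every measured gene of 9 lists (y axis), with red and blue for genes called higher and lower at an adjusted p below 0.05 and grey for the rest; diamonds are P450 genes and circles other genes, set apart vertically only for legibility. The diamonds of the male-biased list lie right of 0 while the other genes of that list fall on both sides. The proximal tubule circles that were called lie left of 0.

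FGF23 against vehicle in WT mice asked for transcripts that respond within 1 hour. No P450 member passed, 0 of 84 in either direction by limma, where 0.0853% of all genes passed, 0.0802% upwards and 0.00502% downwards. The members do not hold Cyp27b1, Cyp2r1 and Cyp51, left out by rule, nor Cyp24a1, so this count does not cover these genes. The unmoderated model, the trended and robust fit and array quality weights also gave 0. At an unadjusted p below 0.05 there were 18 members, 14 higher and 4 lower, where 15.4% of all genes stood at that level. In 6 members all FGF23 arrays were above all vehicle arrays (Cyp4f18, Cyp2b19, Cyp2c29, Cyp2c67, Cyp2d10 and Cyp2d34) and in 3 below (Cyp4a10, Cyp4a31 and Cyp27a1), against 4.09% and 2.92% of all genes. Above 0 were 52 members and below 0 were 32, where 58.7% of all genes were above. The median difference was 0.12 in the 47 dim members and equally 0.12 in all genes of that dim range. It was -0.02 in the 37 brighter members and -0.005 in all brighter genes.

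Cyp2c67 measured 3.57, 3.31, 3.56 and 3.56 with vehicle and 3.91, 3.98, 3.72 and 3.67 with FGF23, without overlap, a log2 difference of 0.32 with a limma adjusted p of 0.241. Cyp11b1, the last enzyme of corticosterone synthesis, measured 4.21, 4.71, 4.39 and 4.50 with vehicle and 5.20, 5.19, 4.60 and 4.83 with FGF23, which overlapped (log2 difference 0.50, limma adjusted p = 0.245). Cyp2b19, an epoxygenase known from skin, measured 4.23, 4.16, 4.24 and 4.19 with vehicle and 4.50, 4.58, 4.55 and 4.47 with FGF23 (log2 difference 0.32, limma adjusted p = 0.252). In Cyp2c67 and Cyp11b1 the highest values came from FGF23 replicates 1 and 2, whose log2 signals were the least spread, and the part of that spread in these differences was not tested. The 4 Cyp4a genes below 0 after FGF23 had differences of -0.31 to -0.20, and Cyp4a12a 0.03. None of the partner, regulator, sex-biased or cell type lists had a called gene after FGF23.

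KL null against WT FGF23 shares its arrays with the 2 comparisons above and differs in genotype, strain label and treatment at once. It gave 16 P450 members higher and 3 lower, or 22.6% of the members, where 12% of all genes passed, 6.72% upwards and 5.25% downwards. In 18 members all KL null arrays were above all FGF23 arrays and in 5 below, against 7.95% and 8.15% of all genes. Cyp4a12b was 4.04-fold higher (limma adjusted p = 3.1e-05), Cyp2e1 2.86-fold and Cyp4a12a 2.51-fold. Cyp27a1 (log2 difference 0.58, limma adjusted p = 0.00366) and Cyp20a1 (0.68, 0.0157) were called here and not against vehicle, and Cyp7b1 (adjusted p = 0.0567) and Cyp2d13 (0.0687) were called against vehicle and not here. The 3 lower members were Cyp2d12, Cyp4f14 and Cyp4b1, at -0.81, -0.68 and -0.74. None of these was called without WT FGF23 replicate 4 or without KL null replicate 2, and 1 was without KL null replicate 3 or 4.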

How the data were processed

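Kidney RNA was measured on 12 whole-transcript arrays. The log2 signals per probe set were deposited by the authors, who, per the submitters' processing notes, used Partek 6.2 and RMA; the background and probe-level settings are not given in the sources used here. A log2 difference of 1 is a doubling. Levels of different probe sets were compared only to pick the probe set of a gene and to describe genes as dim, low or brighter. The table held 28853 probe sets, 21789 of them with 1 gene symbol in the platform annotation. Another 7 probe sets named several genes with a P450 among them and were not used.

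One two-sided moderated fit (limma 3.58.1 under R 4.3.3; 3 group means, 9 residual degrees of freedom) covered all 19938 genes, and the script was tested on simulated data. Folds are log2 differences turned back to a linear scale. Tables and figures came from pandas 2.3.3 and matplotlib 3.10.9 under Python 3.11.15. The members and lists were chosen with earlier results of these data known. Members called with at least 1.5-fold in KL null against vehicle, and the 3 of smallest p after FGF23, are given by array, as are members called under 1.5-fold by log2 difference and, of a role group without a call, the member of smallest p. Of the partner, regulator and sex-biased lists, at most 4 called genes per direction are named by fold; uncalled genes named there, Hnf4a and Cyp2c23 were chosen after their values were seen. Alternatives were median centring, further quantile normalization, other probe set rules, leaving out the lowest 30% of genes, 2-group fits, other moderation, array weights, array spread as covariate, a replicate block and leaving out each array. Leaving out the 4 arrays of lowest spread was chosen after seeing the data. Replicate numbers were checked by correlating deviations from group means between same-numbered arrays. The correlations ran from -0.14 to 0.17 between vehicle and KL null and from -0.22 to 0.19 between vehicle and FGF23. No pairing showed there. Between FGF23 and KL null all 4 were over 0.1 (0.14 to 0.26). Differently numbered arrays were not compared, and replicates 1 and 2 of both these groups had the lowest spreads. Whether the numbers mark pairs was therefore not settled.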

Additional observations from a re-analysis of the deposited data

Results flagged for a closer look

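Single arrays that stood apart from the other 3 of their group, by Dixon's ratio of the gap to the nearest array over the whole range, were looked for in the 25 named P450 genes. This covered 75 groups of 4 arrays, of which 4 were past Dixon's critical value, near the share of about 5% that chance gives. Cyp2c23 was among the named genes because its vehicle arrays split, so its entry here was known beforehand. Cyp2c23 in WT vehicle replicate 4 measured 10.79, against 7.66 to 7.87 in the other vehicle arrays. Cyp2e1 in KL null replicate 1 measured 10.79, against 11.42 to 11.52. Cyp2c67 in WT vehicle replicate 2 measured 3.31, against 3.56 to 3.57, and in KL null replicate 2 it measured 3.45, against 3.68 to 3.70.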

How the results depend on the processing

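The count of P450 genes higher in KL null than WT vehicle, 16, ran from 11 to 19 over 24 alternatives, 11 to 18 when 1 array was left out. The count lower, 3, was 1 with the unmoderated model and 5 with array quality weights, and 2 to 3 with 1 array left out. With the replicate number as a block the counts were 16 and 2, Cyp4b1 being lost at an adjusted p of 0.0527. In KL null against WT FGF23, where same-numbered arrays correlated, the block gave 16 higher and 3 lower as before. Besides Cyp4b1, the block changed no call of a named gene against vehicle. Against WT FGF23 the count higher was 13 to 18 with 1 array left out, and the count lower, 3, was 0 with the unmoderated model and 0 to 3 with 1 array left out. After FGF23, 0 to 1 were higher with 1 array left out, the 1 being Cyp2c23 without WT vehicle replicate 4, and 0 were lower in every alternative run. Cyp26b1 turned to -0.0525 (log2 difference) without the 4 arrays of lowest spread. The causes of these changes were not tested. Cyp4a12b, Cyp4a12a, Cyp2e1, Cyp2d37-ps, Cyp2j9, Cyp17a1, Cyp4a14, Cyp2d12, Cyp2j6, Cyp2s1 and Cyp7b1 kept direction and call under every alternative run for them. Cyp17a1 was dim and absent from the alternative that left out the lowest 30% of genes. Signal over background could not be judged without scanner files, so dim members, 47 of 84, are measured least surely, and 4 arrays per group limit every comparison.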
